A study of Mus musculus with 4 samples.

Results

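Spermatocyte-like cells were the cells of each testis library with the highest share of counts in 10 meiotic genes (SYCP1, SYCP2, SYCP3, HORMAD1, SMC1B, MEIOB, SPO11, DMC1, PIWIL1 and TDRD1). The top 10% of cells of each mouse were taken, which gave 82 of 812 cells. Of these, 10 of 96 and 24 of 242 cells came from WT mice 1 and 2, and 23 of 228 and 25 of 246 from Ctcf-cKO mice 1 and 3. Because the same fraction was taken in each mouse and the cells were ranked by these genes, neither the number of such cells nor their score is a result. Cells were barcodes with 200 to 7000 detected genes, at most 10% mitochondrial counts, and at least 4338, 2379, 1299 and 909 counts in WT 1, WT 2, Ctcf-cKO 1 and Ctcf-cKO 3. One barcode sequence was shared by cells of WT 2 and Ctcf-cKO 1, and it belonged to 0 of the 82 members.

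The study asked what loss of the architectural protein CTCF in male germ cells does to spermatogenesis. Testes of 2 WT mice, labelled Ctcf wt/wt, and of 2 Ctcf-cKO mice, with the genotype Stra8-iCre-Ctcf f/Δ, were digested to single cells. All 4 mice were 15 weeks old, with the background strain given as C56BL/6J, and the labels name no treatment. The iCre transgene is driven by the Stra8 promoter, which is active in premeiotic male germ cells, so the floxed allele is recombined in the germ line, whereas the Δ allele is the second, deleted copy. The methods name 3 genotypes for WT littermates (Ctcf f/f, wt/f or wt/wt), and state that filtrates of a pair of tubes were pooled for the Ctcf-cKO animal. Each mouse gave 1 droplet library with reads from the 3′ end of transcripts. With 2 mice per genotype, an exact permutation test between genotypes cannot give a p below 0.333. A paired sign-flip test over 4 mice has 16 sign patterns, of which 2 give its smallest p, so it cannot pass 0.05 either. Nothing in the labels names a batch, so genotype and any difference between library preparations cannot be told apart.

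Spermatocytes are the germ cells in meiosis. During prophase I the homologous chromosomes are cut by SPO11, repaired by the recombinases of which DMC1 is one, and zipped together by the synaptonemal complex, whose axes contain SYCP2, SYCP3, HORMAD1 and the cohesin SMC1B and whose transverse filament is SYCP1. MEIOB binds single-stranded DNA at the repair sites. At pachytene the transcription factor MYBL1 (A-MYB) switches on many meiotic genes and piRNA precursors, PIWIL1 and TDRD1 act in the piRNA pathway, and the X and Y chromosomes are silenced in the sex body. Round and elongating spermatids, the haploid products, later make acrosomal proteins, transition proteins (TNP1, TNP2) and protamines (PRM1, PRM2), which replace the histones.

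The score used to choose the members is given here as a description. The lowest, median and highest member carried 0.0598%, 0.202% and 0.816% of its counts in the score genes in WT 1. These shares were 0.113%, 0.171% and 0.848% in WT 2, 0.0705%, 0.163% and 0.838% in Ctcf-cKO 1, and 0.0905%, 0.177% and 0.328% in Ctcf-cKO 3. The first cell outside the class stood at 0.0556%, 0.110%, 0.0675% and 0.0875% in the same order, just below the lowest member, so the class is the upper end of a range and not a cluster. In all, 30 of the 82 members lay within 1.5 times of the lowest member of their mouse, and 53 of the 730 other cells lay within the same factor below it. Pooled barcodes with fewer than 200 genes were taken as a measure of free RNA, which was not tested. The pools were unlike in size, with 104983, 590328, 1081040 and 748090 counts. They held 0.0543%, 0.0725%, 0.0365% and 0.0410% of their counts in the score genes. All 82 members were above this share, but so was the first cell outside the class in each of the 4 mice. Because the cells were ranked by the same share, this does not set members apart from free RNA. Among other cells, 43.0% and 34.4% had no count in any score gene in the WT mice, against 82.9% and 86.9% in the Ctcf-cKO mice. These cells also differed in depth, with medians of 15357, 8257, 4648 and 2325 counts, and the part of depth was not tested.

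**Figure D1:**
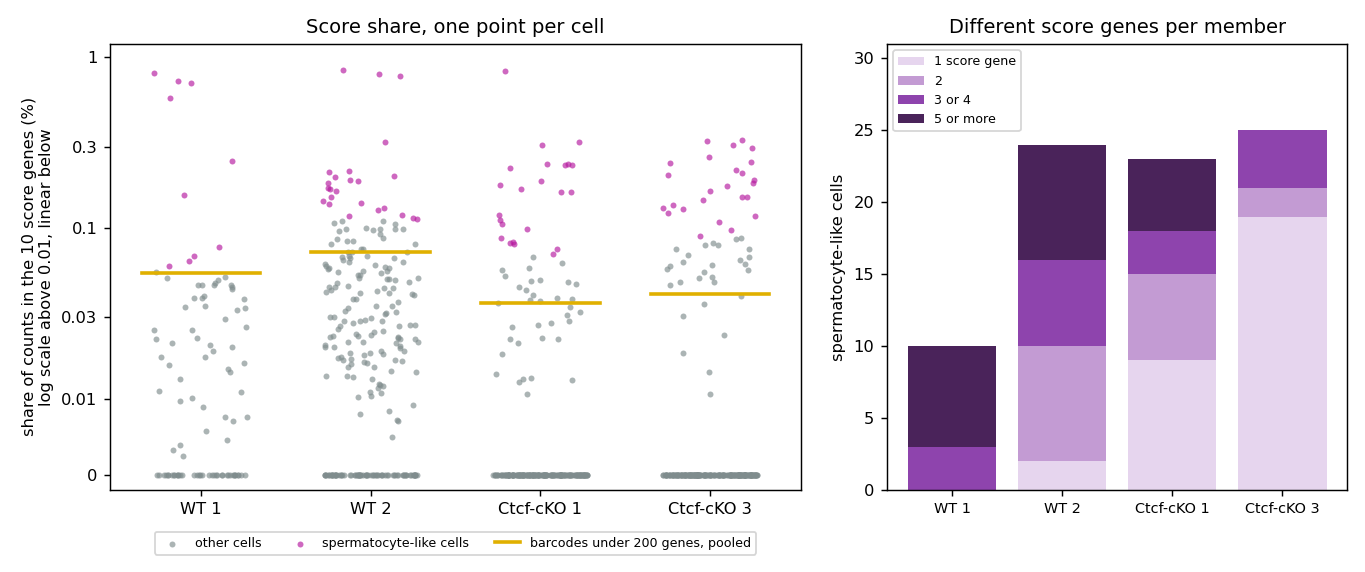
Left, share of each cell's counts in the 10 score genes (%, log scale above 0.01) for members and other cells of each mouse, with the level in pooled barcodes under 200 genes as a bar; right, number of members by how many different score genes they held. Members reach above 0.8% in 3 mice but only 0.328% in Ctcf-cKO 3, where 19 of 25 members held 1 score gene.

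Members differed in how many meiotic genes supported them. The median member held counts of 6, 3.5, 2 and 1 different score genes in WT 1, WT 2, Ctcf-cKO 1 and Ctcf-cKO 3. At least 3 score genes were seen in 10 of 10, 14 of 24, 8 of 23 and 4 of 25 members. Those resting on a single score gene numbered 0, 2, 9 and 19. The median number of score counts per member was 43.5, 13, 6 and 4, and the smallest was 3, 4, 2 and 2. Many counts in these tables came in values up to 4: 64.3% to 82.4% of the nonzero entries were between 1 and 4, and 4 was the most frequent nonzero value in both Ctcf-cKO libraries. In Ctcf-cKO 3 these values go against the label, and there the members are best read as the cells with the highest score. In WT 2 and Ctcf-cKO 1 the label is also weak for the 10 of 24 and 15 of 23 members with 1 or 2 score genes.

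Depth per cell was highest in WT 1 and lowest in Ctcf-cKO 3. Members summed to 232174, 302608, 221630 and 65814 counts, and 3 cells held 60.7%, 39.3%, 42.7% and 22.9% of them. The median member had 18443.5, 5936.5, 5672 and 2443 counts, against 15357, 8257, 4648 and 2325 in other cells (higher in 3 of 4 mice, exact sign-flip p = 0.875). Members had a median of 3381.5, 1704.5, 1245 and 698 detected genes, against 1975.5, 1793.5, 1027 and 691 (higher in 3 of 4 mice, exact sign-flip p = 0.375). After each cell was thinned to 900 counts, members showed 704.5, 615, 601 and 492 genes and other cells 474, 580.5, 517 and 464. Transcript diversity was thus higher in members in 4 of 4 mice, with the smallest p that the sign-flip test allows. The doublet caller Scrublet marked 9, 5, 22 and 17 cells, of which 0, 0, 3 and 3 were members.

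The score genes themselves, which chose the cells and carry no test, varied between mice. SYCP3 had 99, 233, 71 and 10 counts in the members of WT 1, WT 2, Ctcf-cKO 1 and Ctcf-cKO 3, against 13, 138, 22 and 9 in the far more numerous other cells. PIWIL1 had 104, 188, 78 and 24 counts against 18, 89, 18 and 11. SYCP1, with 125, 142, 66 and 6 counts in members, was scarce in Ctcf-cKO 3, where SMC1B (26 counts), SPO11 (24) and PIWIL1 (24) made up most of the score. HORMAD1 was at 0 in WT 1, and the recombination genes MEIOB and DMC1 were both at 0 in the members of Ctcf-cKO 3. As a check on the label, cells were chosen with 5 of the score genes and read with the other 5. Cells chosen by the 5 axis genes (SYCP1, SYCP2, SYCP3, HORMAD1 and SMC1B) held the 5 recombination and piRNA genes at 18.4, 7.94, 10.9 and 1.88 times the level of the remaining cells. The reverse choice gave 9.45, 5.43, 8.05 and 1.99 times. Both readings were higher in 4 of 4 mice (the smallest p the exact sign-flip test allows), with folds near 2 in Ctcf-cKO 3 and at least 5.43 in the other mice. When the axis score was taken on cells thinned to 900 counts, the mean log2 ratio of the first reading fell from 2.89 to 1.08. Without Ctcf-cKO 3 and without thinning, the mean log2 ratio was 3.55 for the first reading, and for the reverse choice it was 2.90 against 2.42 over all 4 mice.

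The deleted gene was too thinly covered for a test. CTCF had 1 and 11 counts in the members of WT 1 and WT 2 and 0 and 0 in those of Ctcf-cKO 1 and Ctcf-cKO 3. Summed over the WT members this was 22.4 CPM (counts scaled to a total of 1000000 per sum). That is 2.15 times the 10.4 CPM to which 3 counts over the Ctcf-cKO members would correspond. WT 1 members alone were at 4.31 CPM, below that floor, so the fold rests on WT 2. Other cells held 19, 13, 0 and 4 counts. The 3′ tags do not show whether a transcript came from a recombined allele. STRA8, the retinoic acid target whose promoter drives the Cre, had 1, 3, 0 and 0 counts in members, too few for a comparison. Of the premeiotic markers, ZBTB16, SOHLH1, LIN28A and RHOX13 were at 0 in all 82 members.

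Counts were then summed over the members and over the other cells of each mouse and compared with the mouse as a block (edgeR quasi-likelihood test with Benjamini-Hochberg adjustment), leaving out the score genes. Outside the score, genes such as TEX101, PSMA8 and TEX12 were higher in members, and most genes of the elongating spermatid list were lower. Of 9085 genes tested, 162 (1.78%) were higher and 733 (8.07%) were lower in members at an adjusted p of 0.05. Of the higher genes, 162 of 162 lay on that side in WT 1, WT 2 and Ctcf-cKO 1 and 145 in Ctcf-cKO 3. Of the lower genes, 608 lay on that side in all 4 mice. Among all genes tested, 18.4% were higher and 11.6% lower in members in all 4 mice. The same mice called these genes, so agreement in side is not an independent check. The balance depended on scaling: the median log2 difference of all genes was -0.11 with trimmed-mean (TMM) scaling and 0.47 with library totals alone, under which 565 genes were higher and 326 lower. The counts also rested on single mice. Without Ctcf-cKO 1 a single gene, TEX101, stayed past the threshold, without WT 1 the counts were 41 higher and 452 lower, and without WT 2 they were 40 and 333. Without Ctcf-cKO 3 they were 332 and 888, and 844 of the 895 genes were again called. With members of at least 3 score genes, 139 genes were higher and 1177 lower.

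Among higher genes with a mean of at least 20 counts per sum and on the same side in all 4 mice, TEX101, a surface glycoprotein of male germ cells, had the largest log2 difference. Its members held 74, 182, 99 and 11 counts in WT 1, WT 2, Ctcf-cKO 1 and Ctcf-cKO 3, against 9, 103, 30 and 8 in other cells. These were 319, 601, 447 and 167 CPM against 5.27, 44.2, 23.6 and 10.7 CPM, with no overlap between members and other cells. Pooled barcodes under 200 genes held 57.2, 52.5, 34.2 and 30.7 CPM. The log2 difference was 3.85 ± 0.48 (SE, 4 mice, adjusted p = 6.4e-07), and without Ctcf-cKO 1 it was 3.90 ± 0.58 (adjusted p = 0.021).

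PSMA8, the testis-specific proteasome subunit, followed with 33, 75, 23 and 4 counts in members and 3, 68, 16 and 0 in other cells (log2 difference 3.63 ± 0.68, adjusted p = 0.00097). The centrosome was represented by CEP85 at 3.49 ± 0.69 and by CCP110, which caps centrioles, at 3.46 ± 0.55. CCP110 had 63, 124, 25 and 5 counts in members and 10, 79, 10 and 7 in other cells. PRC1, which bundles microtubules of the spindle midzone, was higher by 2.92 ± 0.68. Of genes acting on DNA and chromatin, HMGB2 (31, 51, 30 and 12 counts, against 7, 30, 26 and 8) was higher by 3.24 ± 0.59. SPRTN, a protease for proteins crosslinked to DNA, was higher by 3.02 ± 0.57, although its level in Ctcf-cKO 3 rested on 3 counts. DUT, which removes dUTP, was higher by 2.87 ± 0.59. The other leading genes were SDF2L1, an endoplasmic reticulum chaperone component, at 3.15, the renalase gene RNLS at 3.07, and 4930579G24RIK and GM6653 at 3.12 and 3.01. Adjusted p-values of these 12 genes lay between 6.4e-07 and 0.0033. In Ctcf-cKO 3, 2 to 12 counts stood behind each of them.

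**Figure D2:**
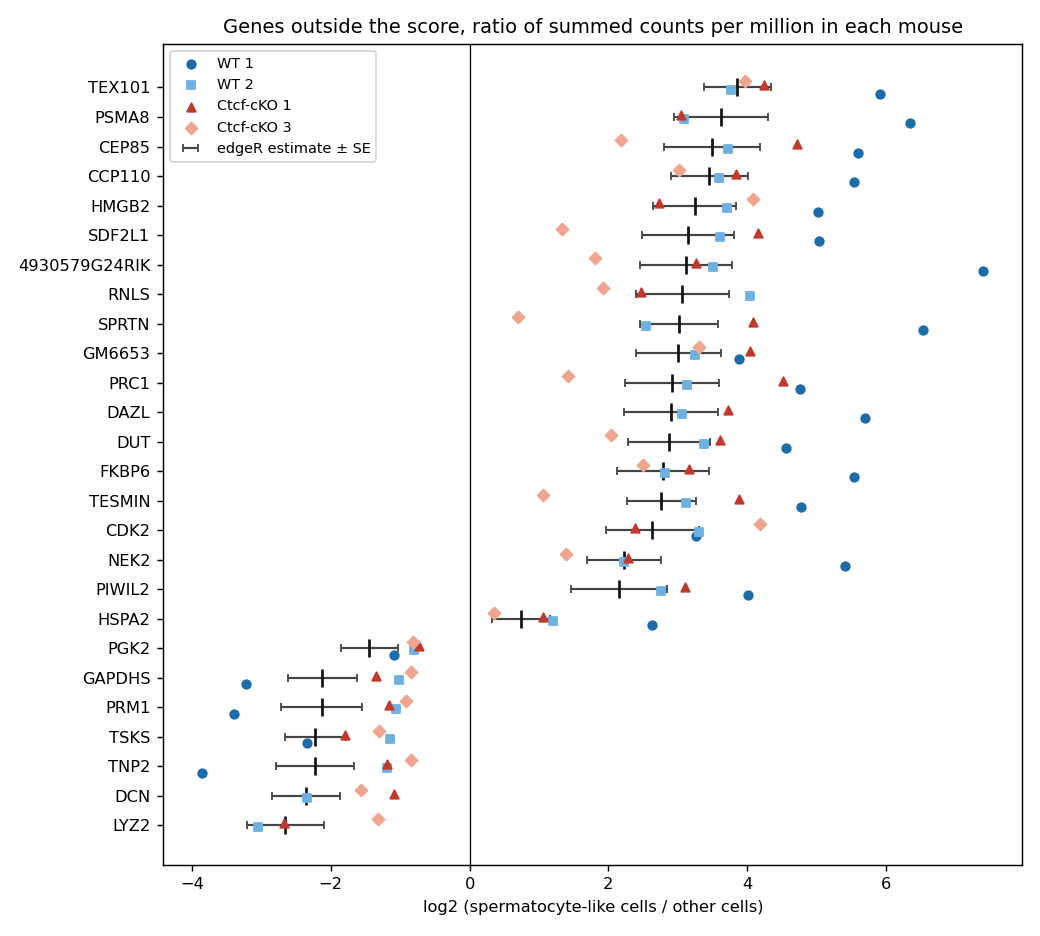
Log2 ratio of CPM in members over other cells for genes outside the score, one symbol per mouse, with the edgeR estimate and its SE as a bar; mice with 0 counts on one side are left out. The 12 leading genes lie to the right of 0 in all mice shown, as the rule that named them required. Spermatid genes (GAPDHS, TSKS, TNP2, PRM1) lie to the left in all mice shown. WT 1 is farthest out for most genes of the figure.

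Counts per list are to be read beside the 1.78% of all genes tested that were higher and the 8.07% that were lower. Of the synapsis and recombination list, 3 genes were higher and 2 lower among 20 tested, and the median log2 difference was 0.29 against -0.11 over all genes. TEX12, a central element protein of the synaptonemal complex, had 28, 45, 8 and 0 counts in members and 0, 6, 0 and 0 in other cells (log2 difference 6.33 ± 1.18, adjusted p = 0.00097). CNTD1, needed for crossover maturation, was higher by 2.07 ± 0.62. H2AFX, the histone variant whose phosphorylated form marks the sex body, was higher by 1.99 ± 0.54. M1AP, another meiotic recombination gene, went the other way, with 11, 14, 0 and 4 counts against 189, 217, 59 and 60 (-2.02 ± 0.63). SYCE2, also of the central element, was lower by the fit (-1.68). The share of counts held by the whole list was 3248, 3133, 2391 and 1155 CPM in members and 2017, 2187, 1577 and 1529 CPM in other cells, so Ctcf-cKO 3 lay the other way. Without it, 5 genes of the list were higher and 2 lower among 26 tested. Of the members of Ctcf-cKO 3, 10 of 25 had no count in any of the list's genes, against 62 of 221 other cells.

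Among pachytene genes, 1 was higher and 1 lower of 10 tested (median log2 difference 0.74), beside 1.78% and 8.07% of all genes. TESMIN, a gene of male meiosis, had 93, 154, 98 and 7 counts in members and 25, 136, 38 and 38 in other cells, and was higher by 2.76 ± 0.50 (adjusted p = 0.00089). MYBL1 itself had 8, 21, 8 and 0 counts against 2, 28, 5 and 4, and its log2 difference of 2.25 ± 1.15 did not pass (adjusted p = 0.23). HSPA2, the spermatocyte chaperone, stood at 1921, 1705, 1020 and 547 CPM in members and 311, 740, 490 and 429 CPM in other cells (0.74 ± 0.42, adjusted p = 0.29). PGK2, the autosomal copy of the X-linked glycolytic gene PGK1, was lower in members by the fit (-1.44 ± 0.42, adjusted p = 0.016).

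Over all genes tested, 1.78% were higher and 8.07% lower in members. Regulators of the meiotic divisions gave 3 higher and 0 lower genes of 24 tested, with a median of 1.04. These were the kinases CDK2 (2.63 ± 0.67), NEK2 (2.23 ± 0.53) and AURKA (1.83 ± 0.49). CDK2 had 13, 45, 20 and 8 counts in members and 10, 35, 22 and 5 in other cells. The whole list held 2929, 2878, 1719 and 1732 CPM in members against 569, 1213, 647 and 993 CPM, higher in 4 of 4 mice (mean log2 ratio 1.45 ± 0.66, SD, the smallest p the exact sign-flip test allows). The piRNA pathway gave 3 higher and 0 lower of 19 tested, with a median of 1.01. FKBP6, a co-chaperone of piRNA loading, had 19, 32, 25 and 10 counts against 3, 35, 16 and 20 (2.79 ± 0.66). PLD6, a mitochondrial enzyme of piRNA biogenesis, was higher by 2.24 ± 0.68 and the Argonaute protein PIWIL2 by 2.15 ± 0.69, although PIWIL2 was at 0 in the members of Ctcf-cKO 3. PIWIL4 was at 0 in every member. DAZL, a translation regulator of germ cells, was the 1 premeiotic list gene of 7 that passed, with 92, 49, 23 and 0 counts against 13, 45, 10 and 10 (2.91 ± 0.68, adjusted p = 0.0033). Of CTCF and cohesin genes, 0 of 8 passed in either direction. Without Ctcf-cKO 3 the division list had 7 higher genes and the piRNA list 5. Without WT 1 each had 1, without WT 2 they had 2 and 1, and without Ctcf-cKO 1 both had 0.

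**Figure D3:**
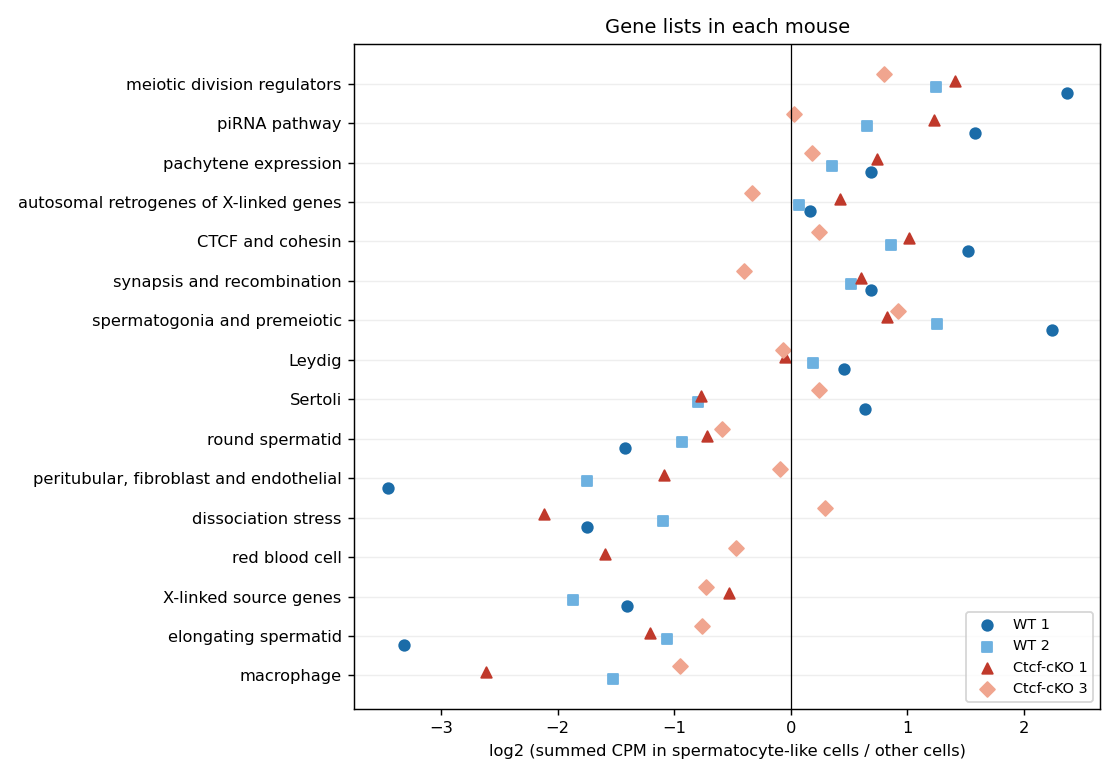
Log2 ratio of the summed CPM of each gene list in members over other cells, one symbol per mouse, ordered by the median fitted log2 difference of the list's genes; mice at 0 on one side are left out. Division regulators and the piRNA list lie right of 0 and spermatid lists left of 0 in all 4 mice, while the synapsis list lies left of 0 in Ctcf-cKO 3.

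Spermatid genes were lower in members but far from absent. Of the elongating spermatid list, 17 of 18 genes tested were lower and 0 higher (median log2 difference -2.05), and of the round spermatid list 11 of 25 were lower and 0 higher (median -1.23). The share lower over all genes tested was 8.07%. PRM1 stood at 3881, 18618, 14669 and 23460 CPM in members against 40859, 38937, 32835 and 44139 CPM in other cells (-2.13 ± 0.59, adjusted p = 0.012). TNP2 was lower by the fit at -2.23 ± 0.56, TSKS, a substrate of spermatid kinases, at -2.22 ± 0.44, and PRM2 at -2.19 ± 0.59. In the round spermatid list, the kinase TSSK6 changed by -2.18 ± 0.53, the sperm thioredoxin TXNDC2 by -2.15 ± 0.46, the acrosomal SPACA4 by -2.13 ± 0.49 and the sperm glycolytic enzyme GAPDHS by -2.12 ± 0.50. The elongating list still took 1.70%, 6.08%, 5.01% and 7.29% of member counts, and its median share per member was 0.900%, 11.6%, 6.91% and 9.70%. In other cells that median was 21.05%, 14.04%, 12.2% and 12.1%, and in pooled barcodes under 200 genes the list took 6.41%, 11.7%, 11.8% and 10.9%. Members of WT 2, Ctcf-cKO 1 and Ctcf-cKO 3 thus held spermatid RNA at a level between WT 1 members and the pooled barcodes of their own mouse. How much of it was free RNA was not tested. Without WT 2 the numbers of lower genes were 9 and 6 in the elongating and round lists, without Ctcf-cKO 1 they were 0 and 0, and in the other 2 fits without a mouse they were 13 to 16 and 10 to 12.

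Several of these levels differed between members with 3 or more score genes and those with 1 or 2. The former were also deeper per cell. They summed to 261551 counts in 14 cells against 41057 in 10 in WT 2, and 157925 in 8 against 63705 in 15 in Ctcf-cKO 1. In Ctcf-cKO 3 they summed to 16101 in 4 against 49713 in 21. Depth and the number of score genes were not separated. In WT 2 the 14 members with 3 or more score genes held TEX101 at 696 CPM and the elongating list at 4.77% of counts. The 10 members with 1 or 2 score genes held TEX101 at 0 and the list at 14.4%, close to the 12.7% of other cells. In Ctcf-cKO 1 the values were 627 CPM and 3.66% in 8 members, and 0 and 8.36% in 15. In the same 10 members of WT 2, the synapsis and division lists (2192 and 1242 CPM) were near other cells (2187 and 1213 CPM). The piRNA list (2314 CPM) was below other cells (3507 CPM) there. TESMIN followed the same division, with 562 against 170 CPM in WT 2, 583 against 94.2 CPM in Ctcf-cKO 1 and 373 against 20.1 CPM in Ctcf-cKO 3, while other cells stood at 58.4, 30.0 and 51.0 CPM. Ctcf-cKO 3 differed for TEX101, which was at 0 in its 4 members with 3 or more score genes and at 221 CPM in the other 21. In WT 2, Ctcf-cKO 1 and Ctcf-cKO 3 the division list stood at 3135 against 1242, 2083 against 816 and 3292 against 1227 CPM. The piRNA list stood at 6018 against 2314, 5756 against 3155 and 3230 against 2052 CPM in the same order. The synapsis list was higher with 3 or more score genes in WT 2 (3280 against 2192 CPM) and Ctcf-cKO 3 (1491 against 1046 CPM). It did not follow the division in Ctcf-cKO 1 (2356 against 2480 CPM), nor did HSPA2 in Ctcf-cKO 3 (373 against 603 CPM). HSPA2 was at 1747 against 1437 CPM in WT 2, with 740 CPM in other cells, and at 1260 against 424 CPM in Ctcf-cKO 1. These subsets were defined after the values had been seen, by genes that entered the score, and carry no test.

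Among lower genes with a mean of at least 20 counts per sum and on the same side in all 4 mice, 8 are named. TEDDM2 had 0 counts in all members and 63, 86, 37 and 24 counts in other cells, at least 9.51-fold higher there than the floor of 3 counts over all members. GM33912 was likewise at 0 in members and at least 7.38-fold higher in other cells. 4930570D08RIK, an X-linked gene, had 0, 0, 0 and 1 counts in members and 268, 45, 2 and 27 in other cells (-5.66 ± 1.34, adjusted p = 0.0035). 1700008A23RIK (-5.03), 4931428F04RIK (-4.74) and RETREG3, a receptor for autophagy of the endoplasmic reticulum (-4.34), had at most 4 counts in the members of any mouse. The other two, CRIP1 (-5.23) and FCER1G (-4.58), the latter an immune receptor subunit, were mainly found in the other cells of the Ctcf-cKO mice, with 116 and 116 counts in Ctcf-cKO 1.

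Transcripts of the X chromosome were scarcer in members of 3 mice. X-linked genes took 0.80%, 0.69% and 1.36% of member counts in WT 1, WT 2 and Ctcf-cKO 1, against 1.71%, 1.45% and 2.13% in other cells. In Ctcf-cKO 3 the order was reversed, with 2.19% in members and 2.02% in other cells. The mean difference was -0.57 ± 0.50 percentage points (SD, n = 4 mice, lower in 3 of 4, exact sign-flip p = 0.25), and -0.81 without Ctcf-cKO 3. Within each mouse with both kinds, members with 3 or more score genes held less X-linked RNA than those with 1 or 2. The shares were 0.57% against 1.44% in WT 2, 1.11% against 1.97% in Ctcf-cKO 1 and 1.45% against 2.43% in Ctcf-cKO 3. Members with 3 or more score genes were also deeper per cell, and the part of depth in this was not tested. Of 237 X-linked genes tested, 0 were higher and 35 (14.8%) lower in members, beside 8.07% lower among all genes. Their median log2 difference was -1.27, and the medians of the 19 autosomes lay between -0.24 and 0.01. Some of the 35 are genes of spermatids, such as the fibrous sheath gene AKAP4 of the elongating list. HTATSF1 was at 0 in the members of all 4 mice and at 7.61, 7.30, 49.7 and 45.6 CPM in other cells, and CTAG2 stood at 38.9, 59.7, 131 and 15.2 CPM against 275, 187, 214 and 188 CPM. The count of lower X-linked genes was 18 without WT 1, 20 without WT 2, 0 without Ctcf-cKO 1 and 45 without Ctcf-cKO 3. Of 7 autosomal genes copied from the X chromosome, 0 were higher and 1 (PGK2) was lower of 6 tested. Their source genes on the X were at 30.1, 33.0, 94.8 and 76.0 CPM in members and 79.6, 121, 137 and 126 CPM in other cells, with PGK1 and RPL10 at 0 in members, but 0 of 3 tested passed.

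**Figure D4:**
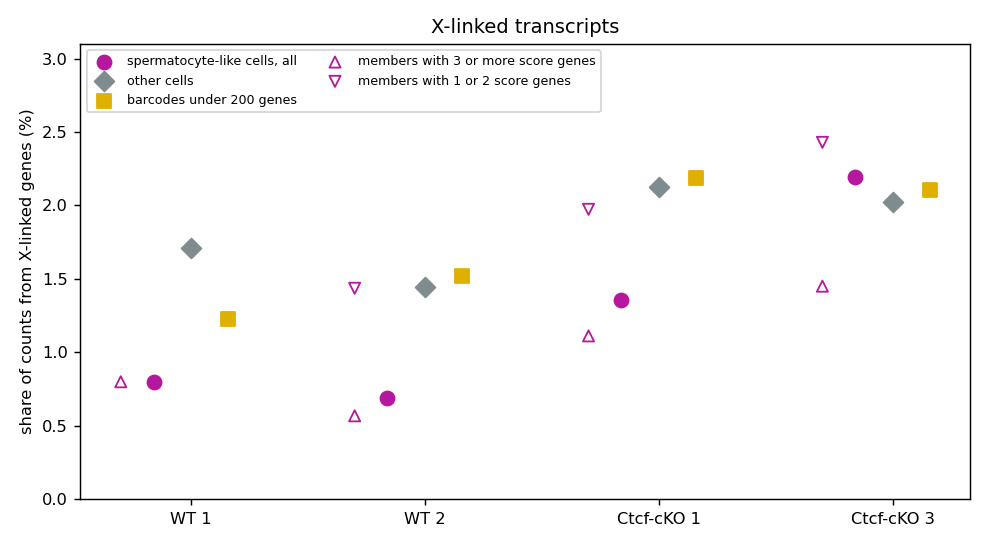
Share of counts from X-linked genes (%) in members, other cells and pooled barcodes under 200 genes of each mouse, with members split by their number of score genes as open triangles. All members lie below other cells in WT 1, WT 2 and Ctcf-cKO 1 and above them in Ctcf-cKO 3, and members with 3 or more score genes lie lowest in every mouse.

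Promoters are shown for 3 of the genes above because MYBL1 binds the letters CAGTTG in spermatocytes. The windows run from 250 bases before to 50 bases after the RefSeq start, in GRCm38.p6, with the MYB core in capitals on either strand (CAACTG on the other). CCP110 lies at chr7:118712293-118712592 (plus strand), FKBP6 at chr5:135349995-135350294 (minus strand) and TEX101 at chr7:24672001-24672300 (minus strand).
CCP110: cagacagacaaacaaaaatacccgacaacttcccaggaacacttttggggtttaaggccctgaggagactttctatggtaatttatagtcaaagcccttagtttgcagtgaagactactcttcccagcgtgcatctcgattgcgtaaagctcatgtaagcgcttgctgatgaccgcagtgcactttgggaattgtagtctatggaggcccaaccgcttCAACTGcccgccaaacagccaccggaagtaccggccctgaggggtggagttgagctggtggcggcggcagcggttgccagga
FKBP6: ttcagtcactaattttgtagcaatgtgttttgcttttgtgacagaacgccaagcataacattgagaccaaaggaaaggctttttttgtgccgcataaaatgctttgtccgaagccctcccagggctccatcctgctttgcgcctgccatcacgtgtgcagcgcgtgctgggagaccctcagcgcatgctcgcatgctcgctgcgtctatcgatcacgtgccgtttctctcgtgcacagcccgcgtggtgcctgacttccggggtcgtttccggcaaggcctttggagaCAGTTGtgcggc
TEX101: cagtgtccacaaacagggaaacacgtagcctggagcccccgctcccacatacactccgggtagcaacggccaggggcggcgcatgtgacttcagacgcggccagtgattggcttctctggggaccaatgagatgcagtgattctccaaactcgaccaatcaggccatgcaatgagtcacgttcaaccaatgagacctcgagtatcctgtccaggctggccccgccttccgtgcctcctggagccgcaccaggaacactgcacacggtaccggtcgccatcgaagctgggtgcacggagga
In GENCODE M21, CCP110 spans chr7:118712552-118737024, FKBP6 chr5:135291704-135350044 and TEX101 chr7:24668007-24676675, so the window of TEX101 lies within the annotated gene and the other windows overlap the first bases of theirs. The core lies 32 bases before the start of CCP110 and 38 bases after that of FKBP6, and these letters do not occur in the window of TEX101. Of the 12 leading genes, 4930579G24RIK and GM6653 held it too. It was found in 20% of the 120 higher genes with a RefSeq window, 12.6% of 579 lower genes, 11.6% of 7015 tested genes and 13.6% of all 27025 genes. The partial site GTTGCC of RFX factors was in 20%, 16.4%, 15% and 12.7%, and the partial CREM site TGACGT in 10.8%, 11.1%, 12.7% and 7.64% of the same sets. These shares are descriptions of letters and carry no test.

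Markers of somatic cells were read in the members because droplets can hold free RNA. Of 12 Leydig genes, 0 passed between members and other cells. The list was at 607, 159, 3506 and 3343 CPM in members, 443, 139, 3636 and 3509 CPM in other cells and 238, 169, 2054 and 1998 CPM in barcodes under 200 genes. CYP17A1, a steroidogenic enzyme of Leydig cells, had 23, 0, 295 and 55 counts in members. Sertoli genes stood at 220, 95.8, 1318 and 2765 CPM in members against 142, 167, 2241 and 2338 CPM, with 0 of 8 passing and GATA4, INHBB and FSHR at 0 in all members. Macrophage genes were lower in members for 5 of 14 tested and higher for 0, at 0, 95.8, 329 and 1140 CPM against 54.4, 276, 2010 and 2198 CPM. The share lower among all genes tested was 8.07%. LYZ2 had 0, 2, 18 and 17 counts in members and 0, 128, 657 and 481 in other cells, and CD68 and CX3CR1 were at 0 in members. Of peritubular, fibroblast and endothelial genes, 1 of 6 passed, the matrix proteoglycan DCN (-2.35 ± 0.49). The same list stood at 8.61, 56.2, 785 and 896 CPM in members, with MYH11 and VWF at 0. Of 4 red blood cell genes, HBB-BT and HBA-A1 were lower. Of 8 stress genes 2 were lower, FOS and JUND, and FOSB, ATF3, HSPA1A and HSPA1B were at 0 in members. The red blood cell list stood at 0, 0, 1033 and 745 CPM in members. In both Ctcf-cKO mice the Leydig and Sertoli lists were thus more than 5 times as high in members as in either WT mouse, and the part of free RNA in this was not tested.

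Few genes passed between genotypes within the members. The edgeR test used here recovered 4 of 200 genes changed by a log2 fold of 2 in simulated counts. Genes and lists that did not pass may therefore still differ. Of 5208 genes tested on the 4 sums of members, 7 (0.134%) were higher and 0 lower in Ctcf-cKO at an adjusted p of 0.05 (edgeR), with 436 genes at an unadjusted p below 0.05. DESeq2 called 103 higher and 1 lower. The 6 of them given here were HBB-BS, GSN, TLE5 and DEFB19, and, outside the naming rule and added after their values were seen, APOE and ALDH2. HBB-BS, a beta-globin gene with a near-identical neighbour HBB-BT, had 0, 0, 168 and 34 counts in members, at least 125-fold higher in Ctcf-cKO, but it was also at 2, 3, 2702 and 504 counts in other cells. APOE, a lipid carrier, stood at 125, 72.7, 1823 and 2082 CPM in members (4.34 ± 0.56, adjusted p = 0.037). It was at 178, 197, 3609 and 3631 CPM in other cells and 95.3, 103, 1462 and 1444 CPM in barcodes under 200 genes. GSN, an actin-severing protein, had 1, 7, 218 and 33 counts in members (5.66 ± 0.79, adjusted p = 0.038). The log2 differences of TLE5, a transcriptional corepressor, DEFB19, a defensin gene, and ALDH2, an aldehyde dehydrogenase, were between 4.51 and 4.93. In each of these 6 genes both Ctcf-cKO mice lay above both WT mice in members, as in 18.5% of all genes tested, and also in other cells and in barcodes under 200 genes. For HBB-BS, GSN, TLE5 and DEFB19 the naming rule itself required this order in members. Without the cells marked as doublets, 1 gene (HBB-BS) stayed past the threshold, and with members of at least 3 score genes 2 of the 7 did. The number of called genes was 70 without WT 1, 39 without WT 2, 420 without Ctcf-cKO 1 and 38 without Ctcf-cKO 3, and the 7 genes were called in each of these fits.

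**Figure D5:**
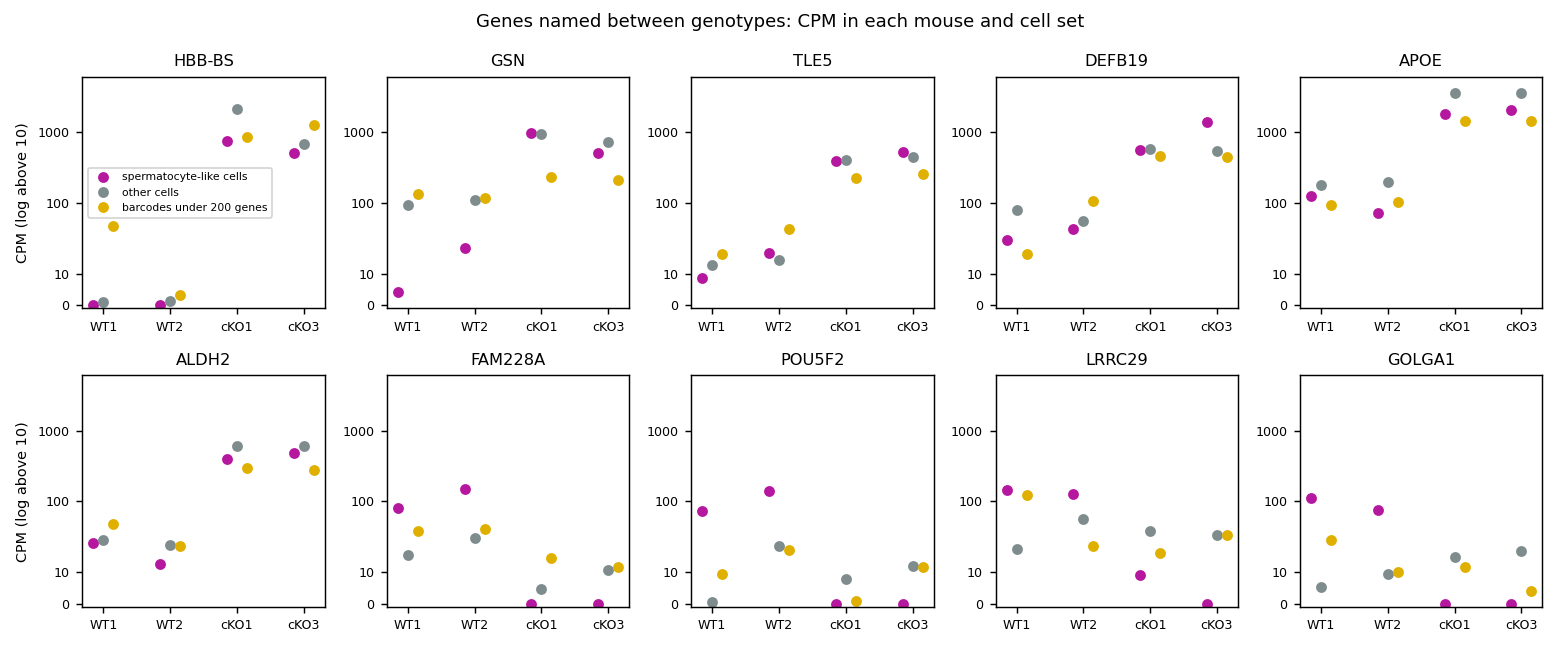
CPM (log scale above 10, linear below) of 6 genes higher in Ctcf-cKO members and of 4 lower genes with a small p, in members, other cells and pooled barcodes under 200 genes of each mouse. HBB-BS to ALDH2 are higher in both Ctcf-cKO mice in all 3 sets, whereas FAM228A, POU5F2, LRRC29 and GOLGA1 are highest in WT members. Except for APOE and ALDH2, the genes were taken only from those whose members did not overlap between genotypes.

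No gene passed in the other direction. Given here are 4 of the 5 genes with the smallest p among those lower in both Ctcf-cKO mice than in both WT mice. Their lack of overlap between genotypes thus follows from this choice. POU5F2, a POU factor of pachytene spermatocytes, had 17, 43, 0 and 0 counts, at least 10.8-fold higher in WT members (adjusted p = 0.21). FAM228A had 19, 46, 0 and 0 counts, at least 11.6-fold higher in WT (adjusted p = 0.19), and the golgin GOLGA1 26, 23, 0 and 0 counts, at least 8.78-fold higher (adjusted p = 0.23). LRRC29 had 34, 38, 2 and 0 counts (-4.21 ± 1.15, adjusted p = 0.22). Groups not overlapping in this direction were found for 25.9% of all genes tested. Of the lists, 0 of 14 synapsis genes, 0 of 9 pachytene genes, 0 of 18 division regulators and 0 of 14 piRNA genes passed, with medians of -0.67, -0.74, -1.23 and -0.74 against -0.13 over all genes. Members supported by 3 or more score genes were 10 of 10 and 14 of 24 in WT 1 and WT 2, and 8 of 23 and 4 of 25 in Ctcf-cKO 1 and 3. The median member had 18443.5, 5936.5, 5672 and 2443 counts in the same order. The part of this support and of depth in the list medians was not tested. The 15 of 18 elongating genes above 0 (median 0.66) also did not pass, and TNP1 (0.66 ± 0.82, adjusted p = 0.92) and PRM1 (0.75 ± 1.02, adjusted p = 0.93) fell below 0 with members of at least 3 score genes.

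Whether the difference between members and other cells itself differed between genotypes was tested by the interaction of both. On simulated counts this test recovered 0 of 200 genes changed by a log2 fold of 2. A lack of called genes therefore does not show that a difference was absent. Of 9085 genes, 0 passed in either direction (edgeR, adjusted p of 0.05), with 435 at an unadjusted p below 0.05. The number was 64 without WT 2, 3 without Ctcf-cKO 1 and 0 without WT 1 or Ctcf-cKO 3. MGP, a matrix protein, had 0, 3, 67 and 30 counts in members and 21, 361, 286 and 92 in other cells, and the lowest adjusted p (5.15 ± 1.17, adjusted p = 0.20). IGFBP4 and FER1L5 had interaction values of 7.10 and 5.19 in the same direction. With values below 0 stood the chaperone HSPA5 (-3.25 ± 0.86), the cargo receptor TMED2, the membrane-shaping ARL6IP1 (-2.85 ± 0.89), RAB18 and ANP32B. HSPA5 was at 879, 479, 185 and 213 CPM in members and 42.7, 85.0, 249.9 and 164 CPM in other cells, so that members were well above other cells in WT and within 1.5 times of them in Ctcf-cKO. Its adjusted p was 0.73. ARL6IP1, at 556, 582, 99.3 and 304 CPM in members against 19.3, 51.5, 94.6 and 68.4 CPM, was higher in members over all mice (2.14 ± 0.53, adjusted p = 0.0044), with an adjusted p of 0.95 for the interaction.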

How the data were processed

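The authors aligned reads to the mouse genome (GRCm38, per the labels) and deposited 1 table of raw counts per gene and barcode for each of the 4 mice. The counting tool and whether molecular identifiers were merged are not given in the sources used here. The deposited tables held 5603, 6474, 5919 and 6407 barcodes and 6701235, 4859455, 2652665 and 1593546 counts, of which 4227, 2075, 327 and 293 barcodes had 200 to 7000 genes and at most 10% mitochondrial counts. A limit on total counts per library, placed in earlier work on these data, left the 812 cells. The members and the gene lists were chosen with earlier results of these data known. Counts were summed per mouse and tested with edgeR 4.0.16 in R 4.3.3, using TMM factors, genes kept by filterByExpr, the quasi-likelihood test, and Benjamini-Hochberg adjustment across the whole table. Because a class cut from a share of counts is compositional, scaling was varied. Single values were compared over mice by exact permutation. Values are CPM of summed counts, and ± is the SE unless SD is stated. For edgeR results the SE was back-calculated as the absolute log2 difference over the square root of the F statistic. Floors are 3 counts and cover counting error only. They take each count as a separate molecule, which the sources used here do not show. If a molecule gave several counts, folds given as "at least" could be lower. Alternatives comprised DESeq2 1.42.0, other scalings, filters, class sizes, scores, thinning to 900 counts, doublet removal (Scrublet through scanpy 1.11.5) and leaving out each mouse. Scripts were tested on simulated counts in which 200 genes were changed by a log2 fold of 2. The edgeR tests recovered 39 of them for members against other cells, 4 between genotypes and 0 for the interaction. Named genes were the 12 highest and 8 lowest past the threshold on one side in all 4 mice with a mean of at least 20 counts per sum, up to 5 per direction between genotypes and for the interaction, up to 4 called genes per list, and CTCF, STRA8, MYBL1, HSPA2, TNP1, PRM1, CYP17A1 and the score genes. Those named between genotypes and for the interaction came only from genes whose values did not overlap between genotypes. Their separation thus follows from the choice. Chromosomes came from GENCODE M21 (97.6% of 25824 symbols matched), and promoters from RefSeq. Strand use in counting is not given, so overlapping genes and near-identical copies (TSSK1 and TSSK2, the globins) remain uncertain. A pair of genes that the naming rule selects between genotypes is not reported here.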

Additional observations from a re-analysis of the deposited data

Results flagged for a closer look

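In 10 results the 2 WT mice moved one way and the 2 Ctcf-cKO mice the opposite way in the log2 ratio of members over other cells. Only list and other per-mouse ratios, named genes and score genes were searched. MGP, 1700120B22RIK, FAM71A, RAB18, ANP32B and TMED2 had been named because this ratio did not overlap between genotypes. HBB-BS, FAM228A and LRRC29 had been named because members did not overlap. The separation of these genes thus follows in part from their choice, and its share over all genes was not counted. The values below are the Ctcf-cKO mean minus the WT mean of that ratio, with a pseudocount of 0.5 counts for single genes. For the single genes the interaction was tested by edgeR and did not pass an adjusted p of 0.05, and for the Leydig list the difference was not tested. The Leydig list differed by -0.38, with ratios of 0.45 and 0.19 in WT and -0.05 and -0.07 in Ctcf-cKO. HBB-BS differed by -1.27, although the members of both WT mice had 0 counts and their other cells 2 and 3. FAM228A differed by -3.16 and LRRC29 by -3.94. MGP differed by 4.31, 1700120B22RIK by 4.98 and FAM71A by 4.75. The members of WT 1 had 0 counts in each of these 3 genes, against 67, 16 and 10 counts in Ctcf-cKO 1. RAB18 differed by -5.15, ANP32B by -6.88 and TMED2 by -6.05, where the members of Ctcf-cKO 1 had 5, 0 and 0 counts.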

How the results depend on the processing

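The number of genes higher in members (162) was 309 with DESeq2, 565 with library totals, 67 with no filter on low genes, 97 with the top 5% and 18 with the top 20% of cells, 58 with 10 members per mouse, 40 with the score on 900 counts per cell, 57 with axis genes alone, 106 with recombination and piRNA genes alone and, chosen after seeing the data, 513 with counts divided by 4. The number lower (733) was 326 with library totals, 322 with at least 10 counts in every sum, 1160 and 25 with the top 5% and 20%, 294 on 900 counts, 404 with axis genes and, chosen after seeing the data, 1177 with at least 3 score genes. Leaving out 1 mouse gave 1 to 332 higher and 0 to 888 lower genes. Between genotypes (7), the count was 104 with DESeq2, 99 without the filter, 16 and 119 with the top 5% and 20%, 63 on 900 counts, 83 with axis genes, 60 with recombination and piRNA genes, 1 without doublets and 51 with counts divided by 4, and 38 to 420 without 1 mouse. The interaction (0) gave 2 with at least 10 counts in every sum, 5 with recombination and piRNA genes and 0 to 64 without 1 mouse. No paired analysis between genotypes was possible because the labels name no pairs of mice.

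Of list ratios (log2), the round spermatid list moved to -0.34 with the top 20% and -0.49 on 900 counts. The Leydig list moved from 0.13 to -0.28, -0.53, -0.44 and -0.12 with the top 5%, the top 20%, on 900 counts and without doublets. The Sertoli list was at -0.97 on 900 counts, the X-linked source genes at -4.10 with the top 5% and -0.26 with the top 20%, and the genes not used by the axis score at 1.08 on 900 counts. Directions turned for CYP17A1 with library totals (0.025), for SPACA4 with the top 20% (0.19), and between genotypes for TNP1 with axis genes (-0.15) and at least 3 score genes (-0.28) and for PRM1 with at least 3 score genes (-0.013). Without 1 mouse, TNP1 ranged from -0.040 to 1.96 and PRM1 from -0.022 to 2.34, both lowest without WT 1. Of the other values for named genes, 695 of members against other cells and 174 between genotypes kept their direction and side of the threshold, 200 and 10 lost it, and 3 and 22 gained it. Depth of 65814 counts limits every value from Ctcf-cKO 3.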
